A study of Mus musculus with 2 samples.

Results

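The 10 genes described here carry out antigen presentation by MHC class I molecules and were followed on 2 expression arrays of mouse B-cell lymphoma. They were chosen by name, with earlier results of these data known. They comprise the heavy chain genes H2-D1 and H2-K1, the light chain gene B2m, and the peptide transport and loading genes Tap1, Tap2 and Tapbp. The others are the immunoproteasome genes Psmb8, Psmb9 and Psmb10, and the transactivator gene Nlrc5. The 10 genes are among the 18193 that a probe set of the arrays names alone. All 30 probe sets whose platform annotation includes 1 of these symbols were taken, of which 27 name a single gene and 3 name several. Each array held RNA of cultured B-lymphoma cells from a lymph node lymphoma of an Eµ-Myc mouse, whose Myc transgene is under the heavy chain enhancer of the immunoglobulin locus and gives rise to B-cell lymphoma. One array was labelled Cdk4+/+ and 1 Cdk4-/-, the latter genotype lacking both copies of the gene of this cyclin-dependent kinase. Both groups carry the transgene, and each group is 1 array of 1 lymphoma. The strain, the H2 haplotype and the age of the mice are not given in the sources used here.

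MHC class I molecules display short peptides from proteins made inside the cell to CD8 T cells. The proteasome cuts the proteins, and its immunoproteasome form carries exchanged catalytic subunits that favour peptides suited to class I. The transporter made of TAP1 and TAP2 moves the peptides into the endoplasmic reticulum, where tapasin holds an empty class I molecule next to the transporter until a peptide binds. The molecule itself is a heavy chain paired with beta-2 microglobulin. NLRC5 is a nuclear protein that acts at the promoters of class I genes, and interferon-gamma is the best known inducer of the whole set.

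There were no replicates, so no difference below has a standard error or a p-value; the number of arrays limits their precision. Values are MAS5 signal intensities on a linear scale, which the authors had scaled to the same trimmed mean of 500.003 on both arrays. Intensities below a floor of 62.2, the median of all probe sets other than controls, were set to it before log2 was taken, and a gene is called measured where it exceeded the floor on each array. Differences are log2 intensity on the array labelled null minus that on the array labelled wild type. Spread was taken from pairs of probe sets of the same gene without an a, s, x or f mark for shared sequence. They gave an SD of 0.30 per probe set for such a difference over 3082 genes, and 95% of the pairs differed by less than 0.84. Pairs marked s or x gave an SD of 0.29 over 349 genes. This spread says nothing of how far lymphomas or cultures vary. The 3 probe sets of Cdk4 read 1.19, 1.18 and 3.71 on the array labelled wild type, against 4945, 4506 and 6958 on the other, at least 79-fold, 72-fold and 111-fold more. The targeted gene thus went against the labels, and exchanging them would turn every direction given here. The ratio of the 3′ to the 5′ control probe set was 1.17 on both arrays for Actb, and 0.800 against 0.811 on the array labelled null for Gapdh.

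The 10 genes ranged from level (B2m) to 2.82-fold more signal on the array labelled null (Tap1). Of the 10 genes, all measured, 5 were higher by 2-fold or more on the array labelled null (H2-D1, Tap1, Psmb8, Psmb9 and Nlrc5) and 0 were lower by 2-fold. Over all 9418 measured genes, 4.26% were higher by 2-fold and 3.27% lower. The median difference of the 10 genes was 0.92, against 0.00 over all measured genes, and 9 of the 10 lay above 0, against 50.0% of all measured genes. At 1.5-fold the count of higher members was 6, against 11.1% of measured genes, and that of lower members 0, against 9.56%. Among the 17 member probe sets that name 1 gene and were measured, 16 lay above 0 and 10 were higher by 2-fold, where 3.54% of all such probe sets were, and 0 were lower by 2-fold, where 3.24% were. Several of them belong to the same gene and are not independent of each other. The list was chosen with earlier results of these data known, so its excess over the shares of all genes is a description only.

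**Figure D1:**
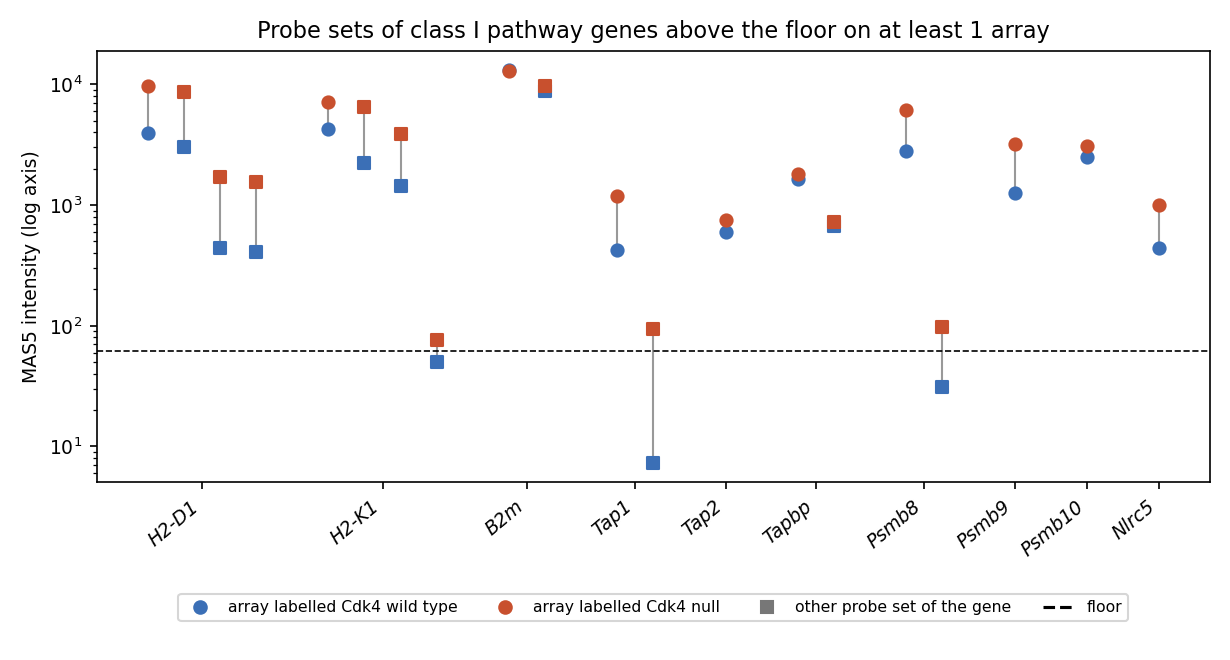
MAS5 intensity on a log axis of each probe set that names 1 of the 10 genes alone and lay above the floor (dashed line, 62.2) on at least 1 array; blue is the array labelled Cdk4 wild type, red the array labelled Cdk4 null, circles mark the brightest probe set of a gene and squares its others. The points of Tap1, Psmb9 and the heavy chain genes lie clearly apart, whereas those of B2m and Tapbp nearly coincide.

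By every measured probe set that names 1 heavy chain gene alone, the array labelled null had the higher signal. H2-D1 encodes the D heavy chain, a classical peptide-presenting molecule of nearly all nucleated cells. Its brightest probe set read 3945 against 9618 on the array labelled null, 2.44-fold more (pairs of values give the array labelled wild type first). The next pair in brightness read 3004 against 8646 and 442 against 1712. The fourth, the only measured H2-D1 probe set without a mark for sequence shared with other transcripts, read 409 against 1563, which is 3.82-fold. The 4 differences thus ran from 1.29 to 1.95, all past 2-fold. The other 5 probe sets of H2-D1 lay below the floor on both arrays and give no fold.

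H2-K1, which encodes the K heavy chain, depended on the probe set in size but not in direction. Its brightest probe set read 4302 against 7077, a difference of 0.72 or 1.65-fold, which is under the 2-fold threshold. The next 2 read 2216 against 6483 and 1431 against 3878, differences of 1.55 and 1.44, both past it. The fourth was above the floor only on the array labelled null, at 50.0 against 76.3. All 4 probe sets of H2-K1 are marked as sharing sequence with other transcripts, as are most of H2-D1, so signals of the 2 genes cannot be fully separated from each other or from related chains. A probe set named for H2-K1 and H2-D1 together read 459 against 542, and one named for H2-Q5 and H2-K1 read 65.1 against 85.7, near the floor. These differences, 0.24 and 0.40, were smaller than those of the probe sets that name 1 heavy chain. The probe set named for Gm38417, H2-Q2 and H2-D1 lay below the floor on both arrays.

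B2m, which encodes beta-2 microglobulin, the invariant light chain of all these molecules, did not share the difference of the heavy chains. Its probe sets read 13061 against 12801 and 8811 against 9661, differences of -0.03 and 0.13. Both values are within the spread between probe sets, and the sign of the brighter one turned to 0.23 under quantile normalization. The difference of H2-D1 exceeded that of B2m by 1.31, and that of H2-K1 did so by 0.75, where the spread between probe sets gives an SD of 0.43 for such a contrast. Over the alternatives in which both genes had a value, these contrasts ran from 1.16 to 1.96 and from 0.55 to 0.95.

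Promoter sequences are shown for the heavy and light chains because these genes carry a common arrangement of sequence motifs although their differences were unlike. The sequences are from RefSeq, mouse build GRCm38.p6, whose table held 8 of the 10 genes and lacked Tap2 and Nlrc5. The 250 bases before each start were searched on both strands for GAAA, any 2 bases and GAAA (core of the interferon-stimulated response element), GGGA, any 4 bases and CC (NF-kB), TGACGTCA (CRE) and its core TGACG, which the full CRE contains, and CCAAT (Y box of NF-Y). The core TGACG was present in 5 of the 8 genes (B2m, H2-D1, H2-K1, Psmb9 and Tap1) and in 17.8% of all 32851 promoters of the table. The CCAAT motif was present in 6 of the 8 and in 33.8% of promoters. The NF-kB letters were present in H2-D1, H2-K1 and B2m and in 17.6% of promoters, and the full CRE in 0 of the 8 and 1.55% of promoters. In H2-D1, H2-K1 and B2m the core is followed, after exactly 20 bases, by ATTGG, which is CCAAT read on the other strand. This arrangement was looked for after the sequences had been seen, and 30 promoters of the table, or 0.0913%, hold it on either strand. The stretches lie at chr17:35262993-35263022 (plus strand, H2-D1), chr17:34000359-34000388 (minus strand, H2-K1) and chr2:122147609-122147638 (plus strand, B2m), with TGACG and ATTGG in capitals.
H2-D1: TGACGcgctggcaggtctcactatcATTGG
H2-K1: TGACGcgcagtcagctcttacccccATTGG
B2m: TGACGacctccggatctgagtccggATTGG
Position by position, H2-D1 matched H2-K1 at 23 of the 30 bases and B2m at 12. Of these 3 genes, H2-D1 was past 2-fold, H2-K1 was so by 2 of its 3 measured probe sets and B2m by none.

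Further upstream the heavy chain promoters share a stretch that begins with the NF-kB letters, and B2m has these letters next to an interferon-stimulated response element core. The stretches are shown because they are nearly identical between the heavy chain genes. They lie at chr17:35262923-35262952 (plus strand, H2-D1), chr17:34000429-34000458 (minus strand, H2-K1) and chr2:122147548-122147577 (plus strand, B2m). Capitals mark the NF-kB matches of both strands, which overlap, and in B2m also the response element core at its 5′ end.
H2-D1: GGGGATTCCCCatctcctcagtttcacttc
H2-K1: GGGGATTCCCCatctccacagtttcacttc
B2m: GAAACTGAAAatGGGAAAGTCCCtttgtaa
The H2-D1 and H2-K1 stretches matched at 29 of 30 bases. Among the 8 genes the exact letters of the response element core were present in B2m alone, and in 2.98% of all promoters. Variants with other letters were not searched, so the heavy chain stretches cannot be said to lack such an element. A match is a description of letters and not a measured binding site.

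Of the transport and loading genes, Tap1 had clearly more signal on the array labelled null, and Tap2 and Tapbp differed less. Tap1, which encodes one half-transporter, read 422 against 1190 by its brightest probe set, 2.82-fold, above 98.0% of measured genes. A second Tap1 probe set read 7.32 against 93.5 and was above the floor only on the array labelled null. The other 2 lay below the floor on both arrays. With the difference averaged over the 2 usable probe sets, the second at its bound, Tap1 stood at 1.04. Tap2, which encodes the other half-transporter, has 1 probe set, which read 597 against 755, a difference of 0.34 or 1.26-fold. The difference of Tap1 exceeded that of Tap2 by 1.16, against an SD of 0.43 from the spread between probe sets, and this contrast ran from 0.70 to 1.17 over the alternatives. Tapbp, the gene of the loading chaperone tapasin, read 1654 against 1815 and 677 against 722, differences of 0.13 and 0.09, both within the spread between probe sets.

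Immunoproteasome subunits were unequal in the same manner. Psmb9, which encodes the subunit also called LMP2, read 1249 against 3220, a difference of 1.37 or 2.58-fold. Psmb8, which encodes LMP7, read 2804 against 6142, a difference of 1.13 or 2.19-fold. Its second probe set was above the floor only on the array labelled null, at 31.3 against 98.2, and with the mean of both, the second at its bound, Psmb8 stood at 0.90, below 2-fold. Psmb10, which encodes MECL-1 and has 1 probe set, read 2504 against 3102, a difference of 0.31 or 1.24-fold. Psmb9 and Psmb8 thus stood above 97.6% and 96.5% of measured genes and Psmb10 above 76.8%.

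These subunits replace PSMB6, PSMB5 and PSMB7 of the constitutive proteasome, whose genes showed no such excess. Psmb6 read 6059 against 5140, a difference of -0.24. Psmb5 read 7156 against 6833 and Psmb7 13480 against 11500, differences of -0.07 and -0.23 that turned to 0.02 and 0.01 under quantile normalization. The ratio of immunoproteasome to constitutive gene was therefore 3.04-fold higher on the array labelled null for Psmb9 over Psmb6, 2.29-fold for Psmb8 over Psmb5 and 1.45-fold for Psmb10 over Psmb7. On the log2 scale the first and the last of these contrasts were 1.60 and 0.54, against an SD of 0.43 from the spread between probe sets. The first ran from 1.53 to 1.60 over the alternatives, the second from 0.96 to 1.21 and the third from 0.28 to 0.58.

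**Figure D2:**
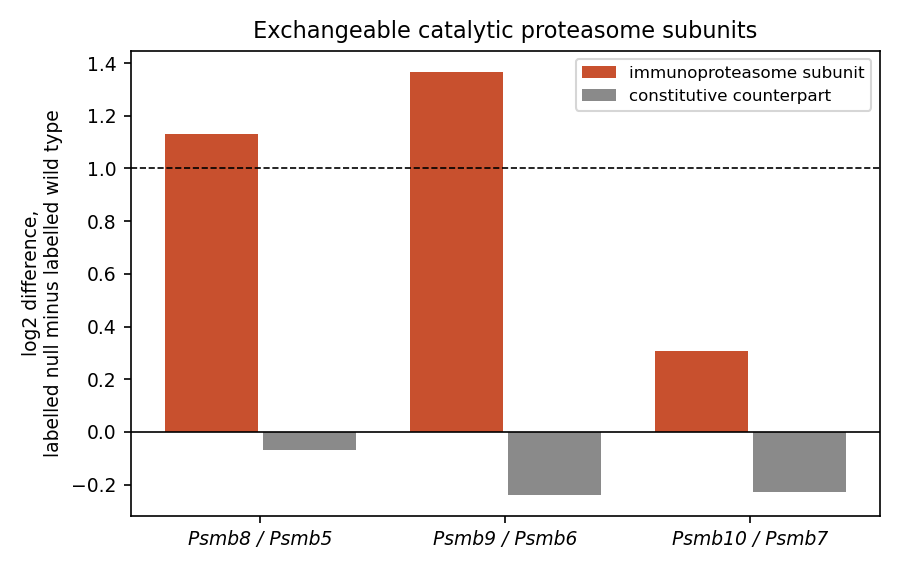
Log2 intensity difference, array labelled null minus array labelled wild type, of each immunoproteasome subunit gene (red bars) and of the constitutive gene whose product it replaces (grey bars), with 1 array per group and no error bars; the dashed line marks 2-fold. Psmb9 and Psmb8 stand at 1.37 and 1.13, Psmb10 at 0.31, and the constitutive genes between -0.24 and -0.07, where the signs of Psmb5 and Psmb7 turn under quantile normalization.

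Psmb9, Tap1, Psmb8 and Tap2 follow each other directly on chromosome 17, within the MHC. In that order they were 2.58-fold, 2.82-fold, 2.19-fold and 1.26-fold higher on the array labelled null. Psmb9 and Tap1 are read in opposite directions from starts that are 225 bases apart, and these bases are shown because the pair had close differences and shares this interval as its promoter. They lie at chr17:34187331-34187555 and are written on the plus strand, the strand of Tap1, with the Psmb9 start just before the first base and the Tap1 start just after the last. Capitals mark the CCAAT motif and the TGACG core.
Psmb9 and Tap1 interval: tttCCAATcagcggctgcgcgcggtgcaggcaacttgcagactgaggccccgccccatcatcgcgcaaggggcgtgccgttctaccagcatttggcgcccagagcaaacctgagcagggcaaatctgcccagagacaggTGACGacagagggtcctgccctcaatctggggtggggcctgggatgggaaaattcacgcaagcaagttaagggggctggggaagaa
The CCAAT letters lie beside the Psmb9 start and the TGACG core 86 bases before the Tap1 start.

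Genes around this cluster were not higher to the same degree. The 100 measured genes that flank Tap1, 50 on each side with the members left out, had a median difference of 0.16, and 6 of them were higher by 2-fold. Without H2 genes the median was 0.05 over 91 genes, of which 5 were higher by 2-fold. Over the 479 measured genes of chromosome 17 the median was 0.06, and 23 were higher by 2-fold. Over all measured genes 4.26% were higher by 2-fold, so the counts of neighbours lay near that share. With chromosome medians set to 0, H2-D1, Tap1, Psmb8 and Psmb9 stood at 1.23, 1.44, 1.07 and 1.31.

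Nlrc5, which lies on chromosome 8 and whose product drives mainly class I genes, as CIITA drives class II genes, was also higher on the array labelled null. Its single probe set read 442 against 1010, a difference of 1.19 or 2.28-fold, above 96.8% of measured genes. It ran from 1.11 to 1.19 over the alternatives. Psmb10 lies on the same chromosome, whose median difference was 0.01.

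**Figure D3:**
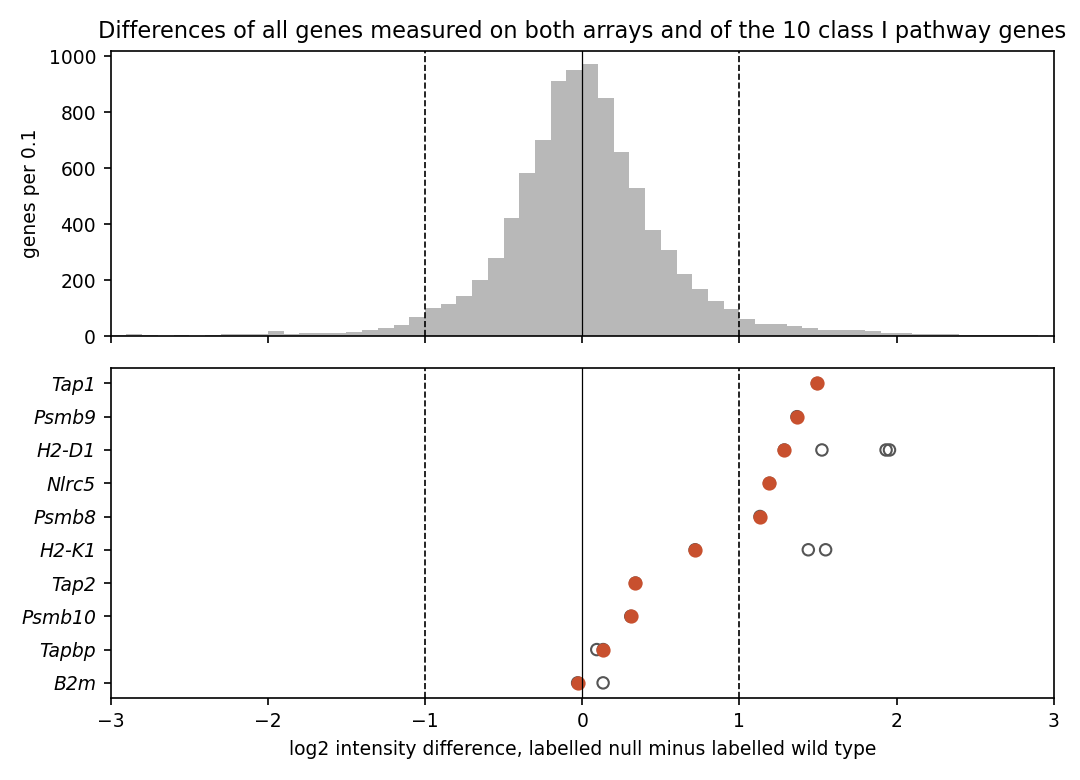
Upper panel, histogram of the log2 intensity difference, array labelled null minus array labelled wild type, over the 9418 genes measured on both arrays, of which 47 lie outside the plotted range of 3 on either side; lower panel, the same difference for each of the 10 genes by its brightest probe set (red) and its other measured probe sets (open circles). Dashed lines mark 2-fold; 5 red points lie beyond the right line, 2 further H2-K1 probe sets do so too, and B2m and Tapbp lie near 0.

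The other class I and class I-like chains differed in both directions. The list holds the Q, T and M region chains of the MHC and relatives outside it, and many share probe sets, so that 19 genes or groups of genes could be followed. Of these, 9 were measured, 1 was higher and 1 lower by 2-fold, and the median was 0.08, with 10 below the floor on both arrays. A probe set pair named for H2-T23 and the pseudogene H2-T-ps read 556 against 1388 and 184 against 335. H2-T23 encodes Qa-1, which presents leader peptides of other class I chains. H2-M3, which encodes a chain that presents formylated peptides, read 303 against 560, a difference of 0.89 that became a bound of 0.29 with a floor at percentile 75. In the other direction, the probe set of H2-Q9 and H2-Q7, which encode Qa-2 chains, read 158 against 78.6, and that of H2-Q6 and H2-Q8 read 257 against 135. Their differences were -1.01 and -0.93, opposite in sign to those of the D and K chains. Each rests on 1 probe set, and over the alternatives with a value they shrank to as little as -0.70 and -0.73, both under 2-fold. H2-T24, named after its values were seen, was also lower, at 214 against 128, and the probe set of H2-T9, H2-T22 and H2-T10, named likewise, was higher, at 810 against 1276. A second probe set of these T chains exceeded the floor only on the array labelled null, at 44.5 against 67.8, a bound of 0.12.

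Partners of the loading complex and enzymes that trim peptides were nearly level. Of 14 genes, all measured, 0 reached 2-fold in either direction, and the median was 0.12. Sec61a1, which encodes the main channel protein of the endoplasmic reticulum, read 3959 against 5911, and its 6 probe sets were all higher, by 0.37 to 0.70. Tapbpl, the gene of the tapasin relative TAPBPR, read 274 against 373 by its 1 measured probe set. The chaperone gene Calr read 8784 against 9867, with other probe sets at -0.02 and 0.14. Uggt1, which encodes a folding sensor that recognizes glycoproteins, read 1534 against 1721, with a second probe set at 231 against 404.

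The list of constitutive subunits, proteasome activators and assembly factors was slightly lower on the array labelled null. Of its 10 genes, all measured, 8 lay below 0, 1 was lower and 0 were higher by 2-fold, and the median was -0.20, or -0.10 under quantile normalization. Psme4, which encodes the activator PA200, read 6746 against 3180, and its 5 measured probe sets had differences from -1.54 to -0.68. The assembly chaperone gene Psmg1 read 4657 against 3382. Pomp, which encodes a maturation factor that both proteasome forms need, read 9244 against 7433. Psme1 and Psme2, which encode the interferon-inducible activator PA28 and were named after their values were seen, read 6401 against 7138 and, with Psme2b on the same probe set, 4313 against 4842. Their differences of 0.16 and 0.17 were within the spread between probe sets, unlike those of Psmb8 and Psmb9.

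Regulators of class I transcription differed in both directions. Of 23 genes with a probe set, 21 were measured, 3 were higher and 1 lower by 2-fold, and the median was 0.15. Irf8, an interferon regulatory factor gene of B cells and myeloid cells, read 2059 against 4743, with a second probe set at 1016 against 2357. The receptor gene Ifnar2, for type I interferon, read 258 against 544, a difference of 1.08, but its other probe sets gave 0.72 and 0.47. Ifngr1, which encodes the ligand-binding chain of the interferon-gamma receptor, read 400.4 against 802, just past 2-fold, with a difference of 0.96, below that threshold, under quantile normalization. Downstream of these receptors the kinase genes Jak1 and Jak2, named after their values were seen, read 1490 against 2810 and 277 against 472. The other measured probe sets gave smaller differences, 0.85 and 0.40 for Jak1 and 0.25 for Jak2, and Jak2 stood at a bound of 0.04 with a floor at percentile 75. Irf1, the interferon-induced factor gene, also named after its values were seen, read 670 against 911, 1.36-fold. Rfx5, whose product binds the X box of class I and class II promoters, was lower, at 2069 against 1003. Its partner gene Rfxap, named after its values were seen, was lower too, at 1367 against 784. Both lie on chromosome 3, whose 453 measured genes had a median of -0.47, and with chromosome medians set to 0 they stood at -0.57 and -0.33.

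**Figure D4:**
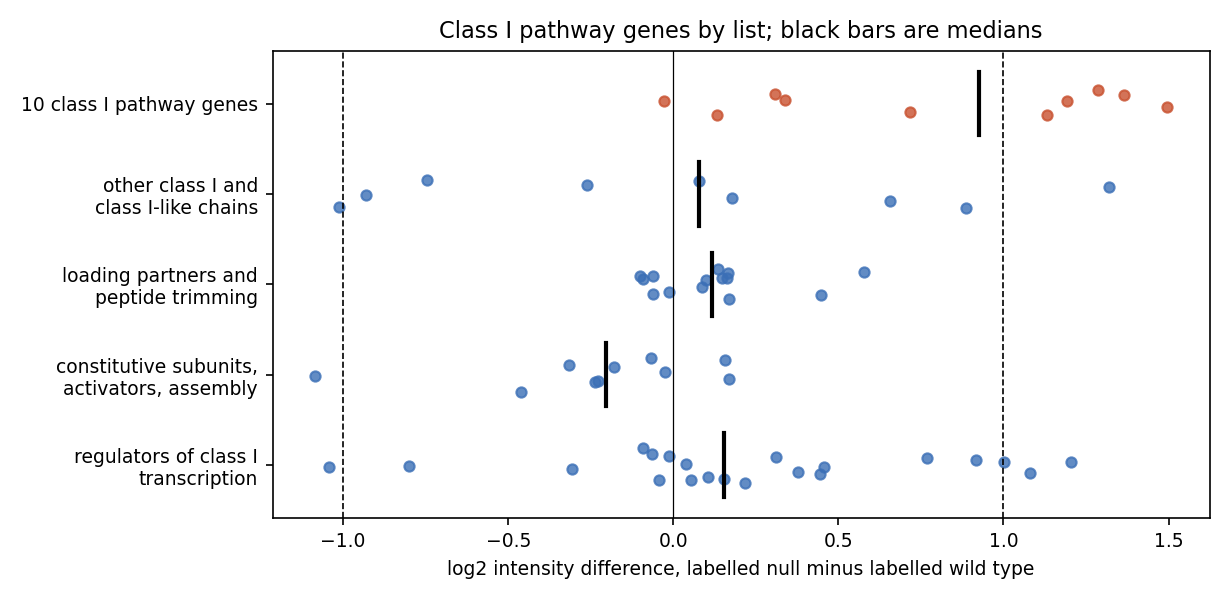
Log2 intensity difference, array labelled null minus array labelled wild type, of the 10 genes (red) and of the genes or shared probe set groups of 4 related lists (blue) that lay above the floor on at least 1 array; points are scattered vertically for legibility, black bars are list medians and dashed lines mark 2-fold. The median of the 10 genes is 0.92, and those of the other lists lie between -0.20 and 0.15.

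Markers of the labelled cell type were present on both arrays, and markers of other cell types differed beside the class I genes. Of 9 B lineage genes, all were measured and 0 reached 2-fold, with a median of 0.11 and the widest differences at Blk, a kinase gene, 630.4 against 978, and Blnk, an adaptor gene, 5646 against 7959. Of 20 macrophage, granulocyte and dendritic cell markers, 12 were above the floor on at least 1 array and all 12 lay above 0, though 6 of them were below it on the array labelled wild type, so that only a value above 0 was possible. Their summed intensity over the 20 genes was 734 against 4846. Most of the latter came from the lysozyme genes, Lyz1 at 5.74 against 1890 and Lyz2 at 70.1 against 1368. The Lyz1 probe set carries an x mark for shared sequence, so these 2 signals may not be separate. Csf1r, Adgre1 and Itgam, defining markers of macrophages named after their values were seen, read 85.5 against 221, 67.4 against 97.8 and 57.6 against 78.9. On the array labelled wild type Adgre1 was near the floor and Itgam below it, which leaves Itgam a bound of 0.34. Marco, Cd163, S100a8, S100a9, Elane, Mpo, Itgax and Siglech lay below the floor on both arrays. The 16 stromal and endothelial markers summed to 1241 against 3053, with 9 above the floor on at least 1 array, of which 7 lay above 0, 4 of these exceeding it solely under the null label, which fixed their sign, and with Col1a2 at 85.5 against 591 and Acta2 at 103 against 598. The endothelial genes of this list, named after their values were seen, were near level or lower. Pecam1, among the 7 above 0, read 695 against 777, a difference of 0.16. Kdr read 101 against 8.96 and Cdh5 68.2 against 20.2, both below the floor on the array labelled null. Tek and Vwf lay below the floor on both arrays. Of 14 T and NK cell markers 4 were measured, 2 above 0 and 2 below, with a median of 0.06. The list summed to 935 against 1548, a rise that came mostly from Cd2 at 346 against 931. Prf1 read 88.9 against 63.3. Zap70 and Cd8a, the others measured and named to account for the list, read 264 against 369 and 81.6 against 63.7. Cd3d, Cd3e, Cd3g and Cd4 were below the floor on both arrays. In these cultures fewer cells of a type and less RNA per cell cannot be told apart, and the part of these markers in the class I differences was not tested.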

How the data were processed

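RNA of 2 lymphoma cultures was measured on 1 Affymetrix mouse array each, from 6 µg of total RNA, per the labels' protocols. The deposited file holds linear-scale intensities of 45101 probe sets, computed by the authors with MAS5 per the submitters' processing notes, with the version not given in the sources used here. Detection calls were not used here. Gene names are those of GEO's annotation of the platform, with 34958 naming 1 gene, 932 several and 9211 none. Chromosomes and gene order came from a RefSeq table of GRCm38.p6. The brightest probe set by mean log2 intensity stood for a gene. Calls were counted at 2-fold, with no test, since each group is 1 array. The script that counts folds was checked on simulated intensities with known folds, which says nothing of the real differences. The members, the lists and the rules were chosen with earlier results of these data known. Named were all members, Cdk4, the constitutive subunits, the 4 genes of each pathway list and the 2 of each marker list with the largest difference, and others where the text says so. Genes of a marker list given as below the floor were named to account for the list. A planned comparison of protein sequences and 1 planned motif are not reported here. Alternatives covered the floor, a pseudocount of 50, quantile normalization, the mean of probe sets, shared probe sets, chromosome medians and a 1.5-fold threshold. Python 3.11.15, NumPy 2.4.6 and pandas 2.3.3 were used.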

Additional observations from a re-analysis of the deposited data

How the results depend on the processing

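None of the members higher by 2-fold turned lower under any alternative that gave it a value, and 70 of the 75 member values obtained lay above 0, the other 5 being those of B2m. All 75 are re-readings of the same arrays, and the floors left most of the genes unchanged, so their number adds no weight to a direction. The count of members higher by 2-fold was 4 or 5 over the alternatives that kept this threshold. It was 4 of 10 with the mean of probe sets. With every probe set marked a, s, x or f left out, it was 4 of 6. At 1.5-fold, 6 members were higher. The median of the members moved to 1.28 without every probe set that carries an a, s, x or f mark, where 6 members were left, and otherwise ran from 0.87 to 1.13. Leaving out only those marked s, x or f, an alternative chosen after seeing the data, kept 9 members. The median of the other class I chains moved to 0.66 with a floor at percentile 75, where 3 were left. Counts over all measured genes depend on the floor. A floor at percentile 25 gave 833 genes past 2-fold on the higher side and 779 on the lower, one at percentile 75 gave 118 and 83, and the median gave 401 and 308. No paired analysis was possible because each group held 1 array, and no array could be left out.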
